A study of Homo sapiens with 3 samples.

Results

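The regions described are the MATR3 clusters that the authors' annotation places in a 5′ UTR, the untranslated stretch of an mRNA between its start site and its start codon. They were taken as every row of the annotation class 5'utr outside chromosome M, separately in each replicate. Replicate 1 held 955 such clusters of 133088, replicate 2 held 1116 of 131679 and replicate 3 held 953 of 124040, which is 0.778% ± 0.0656 of all clusters (SD, n = 3). The libraries are 3 biological replicates of MATR3 PAR-CLIP from HEK293 cells of wild-type genotype (HEK293-WT), an established human embryonic kidney line, labelled with no treatment and with an antibody against MATR3. They form a single group without a control library. Each comparison was therefore made between classes of clusters or parts of a transcript within the same library.

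MATR3 (matrin 3) is an abundant nuclear RNA-binding protein with zinc fingers and RNA recognition motifs, and it is known for binding pyrimidine-rich sites in introns and for a part in alternative splicing. In PAR-CLIP, cells take up a photoreactive uridine, ultraviolet light crosslinks it to the bound protein, and the crosslinked base is read as a T-to-C change. A cluster is a group of overlapping reads that carry such changes. 5′ UTRs hold the scanning path of the ribosome, upstream start codons and, in some mRNAs, protein-binding elements that control translation, and they are commonly rich in G, C and CpG.

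The 5′ UTR clusters held 12959, 13430 and 13289 reads in replicates 1, 2 and 3, or 0.859% ± 0.0574 of the reads in all clusters outside chromosome M (SD, n = 3). Those totals were 1633181, 1489636 and 1508410 reads. Distinct reads in the 5′ UTR clusters numbered 4358, 5762 and 4652, and 29.0%, 21.9% and 28.6% of the clusters rested on 2 or fewer. No 5′ UTR cluster had fewer than 4 reads, of which 4 or more carried a T-to-C change at 2 or more locations, so weaker contacts are not in these data. The depth of the whole libraries is unknown, and transcript abundance was not analysed here. Clusters that cross a boundary have classes of their own in the deposited tables and are not counted here. Those running from a 5′ UTR into an intron numbered 176, 215 and 179, those from an intron into a 5′ UTR 99, 113 and 89, and those over a start codon 171, 217 and 150.

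At 39 places the 5′ UTR clusters of all 3 replicates joined into 1 overlapping locus (a recurring locus). The sequences below are shown because they are the centres of such loci, where at least 25 nt were covered in all 3 replicates. They comprise 10 of the 11 that meet this limit among the 20 recurring loci with the most reads, and the loci of COA1 and LTB4R, a pair of genes that lead by reads over the whole gene. Each is 30 nt of hg38 centred on the shared stretch, written 5′ to 3′ on the transcribed strand, with T, the base that can show the crosslink, in capitals.
GET4 locus 1 at chr7:884187-884216, plus strand: TTgcTcagggTcggTgcaTgcggTTcTgcc
GET4 locus 2 at chr7:883818-883847, plus strand: cgTccacgTTcagagccgccTTagacggTT
CNTROB at chr17:7932812-7932841, plus strand: gTccgcacccgcTcTgcgcTgcacccTcTT
C3orf58 at chr3:143973225-143973254, plus strand: TTTgacTgTggaTcTTTcaacgccagaggg
NSUN4 at chr1:46341299-46341328, plus strand: cTccTTTccTcaTTgaTTTTccagcccggT
SNAPC4 at chr9:136398635-136398664, minus strand: TggggcTTaggcTccTggcagagcacaTag
C19orf48 at chr19:50798615-50798644, minus strand: ccggcTgcTgaTggccTggTgccagcTggg
SOCS2 at chr12:93571992-93572021, plus strand: ccccgcgagggcTgcgcgcTcgggccgaTT
BICD1 at chr12:32107242-32107271, plus strand: TcccTTcccaTTTccTTcTcccTTTccccg
PUS1 at chr12:131931899-131931928, plus strand: cTgacagaTTgTggaagTaggTgTaTgcac
COA1 at chr7:43650535-43650564, minus strand: TcccTgTcTaTTgagcagaTaggaagccgT
LTB4R at chr14:24314486-24314515, plus strand: agcTccaaccTacacTTccTaTTaaTcTTa

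These 12 sites differ widely in composition. The number of T in 30 nt ran from 4 at SOCS2 to 12 at NSUN4 and BICD1, and the number of G and C from 11 at LTB4R to 24 at SOCS2. The BICD1 site was almost wholly pyrimidine, with 28 of 30 bases C or T. SOCS2 held 6 CpG dinucleotides, whereas SNAPC4, PUS1 and LTB4R held 0. ATCTT, as AUCUU in RNA a motif described for MATR3, occurred in 2 of the 12, at C3orf58 and LTB4R. LTB4R was added for its reads over the whole gene. The sites of TROVE2, TESK2 and CNR1 also meet the limit and rank above LTB4R by reads of the locus, but are not printed. They held 22, 21 and 26 G and C and no ATCTT, and with them 2 of 15 sites held the motif. The choice of sites thus bears on this count and on the range of G and C. Of all 5′ UTR clusters 4.89% ± 0.534 held ATCTT (SD, n = 3). In the representative transcript defined below, 8 of the 12 sites lay in introns, C3orf58 and LTB4R among them, and 2 in 5′ UTRs.

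The authors' class was first set against the gene models of GENCODE release 44, with 1 representative transcript per gene (MANE Select, otherwise Ensembl canonical), to ask where the 5′ UTR clusters lie in the usual form of each mRNA. The midpoint lay in the 5′ UTR of the representative transcript for 389 of 955, 503 of 1116 and 389 of 953 clusters, or 42.2% ± 2.48 (SD, n = 3). It lay in an intron of that transcript for 444, 459 and 433, or 44.4% ± 2.84 (SD, n = 3). A further 112, 137 and 117 clusters, or 12.1% ± 0.317 (SD, n = 3), lay upstream of its start site. The order of the 5′ UTR and intron shares was not the same in every library, since replicate 2 had more in 5′ UTRs and replicates 1 and 3 had more in introns.

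**Figure D1:**
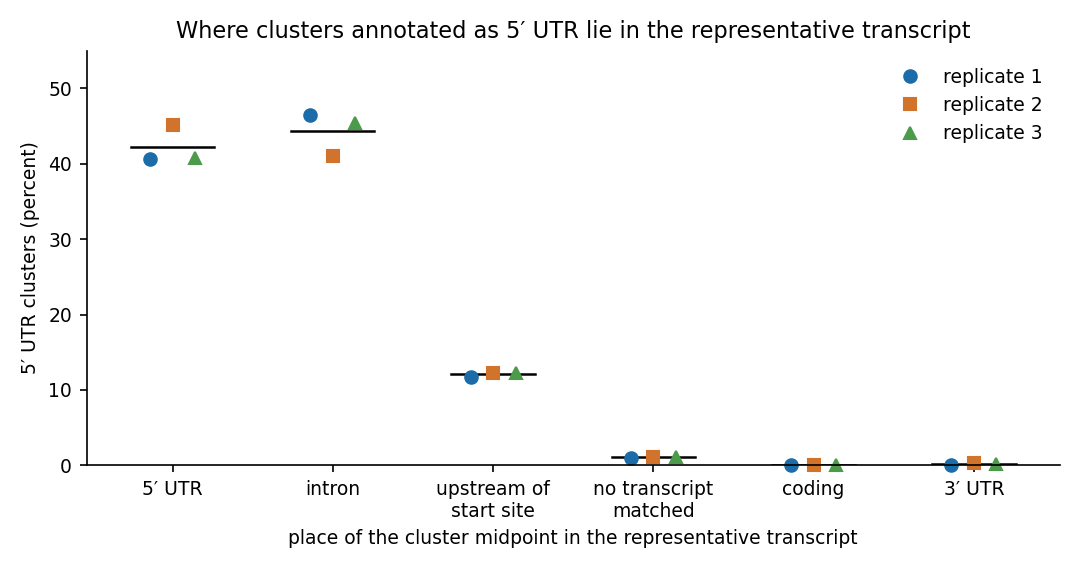
Percent of 5′ UTR clusters (vertical axis) by the place of the cluster midpoint in the representative transcript (horizontal axis), with 1 point per replicate and a bar at the mean. The 5′ UTR and intron shares lie close together, at means of 42.2% and 44.4%, and the upstream share is 12.1%.

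Most intron-placed clusters lay in the 5′ UTR of some other transcript of the gene. Such an overlap was found for 92.1% ± 1.18 of them, and for 62.8% ± 4.01 of the clusters upstream of the start site (SD, n = 3). Counting any protein-coding transcript of the gene, 90.7% ± 1.22 of all 5′ UTR clusters touched a 5′ UTR (SD, n = 3). The intron concerned was intron 1 for 78.7% ± 1.76 of the intron-placed clusters (SD, n = 3). Their median distance downstream of the start site was 1548, 1593 and 1418 nt, and 40.5% ± 1.35 lay within 1000 nt of it (SD, n = 3). The clusters before the start site had median positions of -280, -336 and -349 nt relative to it. Reads of an unspliced RNA and reads of an mRNA that starts or splices differently look the same at such places, so the 5′ UTR and the intron labels of these clusters cannot be told apart from the clusters alone.

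The next comparison asked how the 5′ UTR clusters differ from coding, intron and 3′ UTR clusters of the same libraries. It used 39 exact two-sided sign-flip permutation tests over the 3 replicates, including those on position and motifs given further on. With 3 replicates the smallest p possible is 0.25, and the smallest value after Benjamini-Hochberg adjustment over the 39 tests was 0.348, so none could pass 0.05. Differences are therefore described by their size, their spread and the number of replicates that share the sign. Where all 3 replicates had the same sign, p was 0.25.

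In size the 5′ UTR clusters were close to the other classes. Their median length was 40, 41 and 39 nt, against 39, 40 and 37 nt for introns, and the whole range ran from 22 nt to 338, 492 and 227 nt. The median cluster had 10, 9 and 10 reads, 1 above introns in 3 of 3 replicates. With at least 10 reads required in every class, the mean length difference from introns turned from 1.33 to -0.833 nt.

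In base content they stood apart. G and C made up 60.4%, 61.6% and 60.9% of their bases. Intron clusters had 47.2% ± 0.719 and 3′ UTR clusters 49.4% ± 0.589 (SD, n = 3), so the within-library differences were 13.8 ± 0.298 and 11.5 ± 0.306 percentage points (exact sign-flip p = 0.25, adjusted 0.348 for each). Coding clusters came closest, at 58.2% ± 0.555, a difference of 2.74 ± 0.546, or 1.41 with at least 3 conversion locations. CpG made up 6.35 ± 0.120 of 100 dinucleotides in 5′ UTR clusters, 4.14 ± 0.151 in coding clusters, 1.31 ± 0.0857 in intron clusters and 1.33 ± 0.0456 in those of 3′ UTRs (SD, n = 3). T was scarcer than in introns, 23.7% ± 0.887 against 31.9% ± 0.883, but exceeded coding clusters by 0.979 ± 0.413 percentage points, or by 0.535 over the median cluster. Every one of these gaps pointed the same way in the 3 replicates and exceeded the spread between them. The class is defined by its region, and the uncovered rest of the representative 5′ UTRs with clusters had 31.5% C and 31.0% G (means, n = 3). The gaps therefore compare regions as well as clusters, and the part of the region in them was not tested.

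T-to-C marks were compared in both ways the tables allow. Reads with a T-to-C change made up 83.7%, 81.7% and 80.9% in 5′ UTR clusters. This differed from introns by -5.35 ± 1.62 percentage points and from 3′ UTRs by 3.81 ± 0.696, in the same direction in 3 of 3 replicates each. The rate per T, conversion events over all conversion and non-conversion events, was 12.9%, 13.8% and 13.0%. Here the order was different, with the 5′ UTR above introns by 2.33 ± 0.433 and above 3′ UTRs by 2.81 ± 0.283 percentage points. The rate differed from coding clusters by -0.765 ± 0.340, below them in 3 of 3 replicates, and by -0.184 with at least 10 reads. Because the T content also differed between these classes, with 23.7% in 5′ UTR and 31.9% in intron clusters, the shares per read and per T need not run together, and the part of T content in either was not tested. Against coding clusters the share of reads differed by 0.719 ± 0.375 when reads were pooled, by 2.47 with at least 10 reads and by -2.77 when the median cluster was taken.

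**Figure D2:**
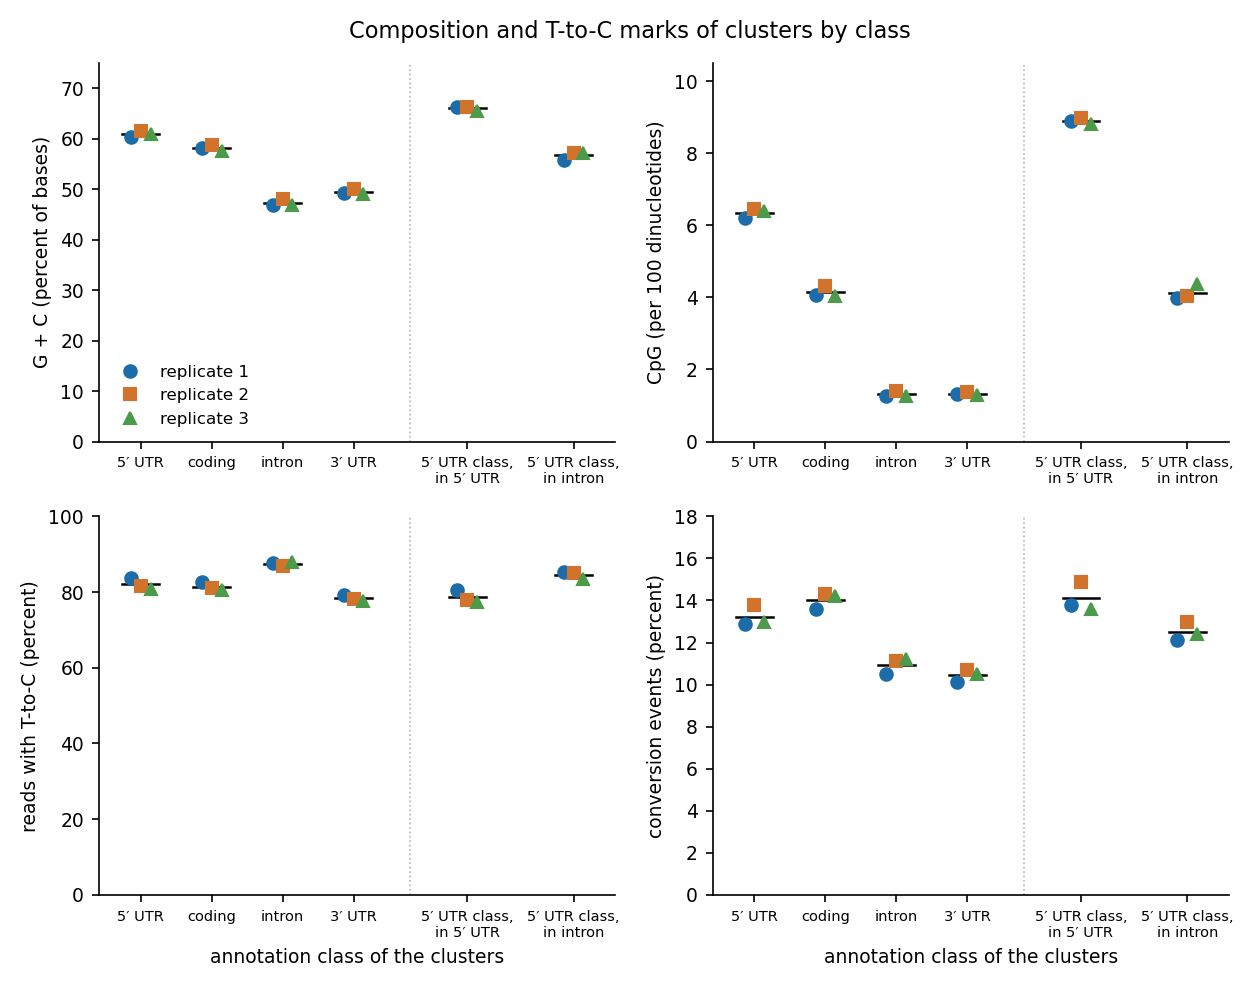
G and C content, CpG per 100 dinucleotides, percent of reads with T-to-C and percent of conversion events (vertical axes) for the clusters of each class (horizontal axis), with 1 point per replicate and a bar at the mean. To the right of the dotted line, the 5′ UTR clusters are split by whether the midpoint lies in the 5′ UTR or in an intron of the representative transcript, at 66.0% and 56.7% G and C.

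Splitting the class by place showed that it was a mixture. Clusters within representative 5′ UTRs had 66.3%, 66.3% and 65.4% G and C, and intron-placed clusters of the same class 55.7%, 57.2% and 57.2%, a difference of 9.33 ± 1.19 percentage points (SD, n = 3). CpG was 8.88 ± 0.0849 against 4.13 ± 0.214 per 100 dinucleotides. Reads with T-to-C made up 78.6% ± 1.62 against 84.6% ± 0.960, and conversion per T was 14.1% ± 0.684 against 12.5% ± 0.447. Each of these had the same sign in 3 of 3 replicates (exact sign-flip p = 0.25, adjusted 0.312 over 20 such tests). Yet the intron-placed clusters were not like the clusters the authors annotated as introns. They exceeded that class by 9.50 ± 0.776 percentage points in G and C, by 2.81 ± 0.25 in CpG and by 1.60 ± 0.312 in conversion, again in 3 of 3 replicates. That class covers introns anywhere in genes, whereas 78.7% ± 1.76 of the intron-placed clusters lay in intron 1 (SD, n = 3). The sets were not matched for place, and its part in these differences was not tested. Clusters upstream of the start site lay between the other groups in G and C, at 59.7% ± 0.417 (SD, n = 3).

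When only the clusters within representative 5′ UTRs were kept, the contrast with coding clusters in G and C and in CpG grew. The difference in G and C went from 2.74 to 7.82 percentage points and that in CpG from 2.21 to 4.74. The differences in T and in conversion from coding clusters changed sign, from 0.979 to -1.61 and from -0.765 to 0.0848. T-to-C reads as a share then differed from coding clusters by -2.79 percentage points in place of 0.719. Its difference from 3′ UTR clusters shrank from 3.81 to 0.304.

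Position along the 5′ UTR was measured for the 397, 512 and 394 clusters that overlap the representative 5′ UTR, on the spliced sequence from the start site (0) to the start codon (1). The median position was 0.512, 0.509 and 0.511, close to the middle (exact sign-flip p = 0.25 against 0.5), and it moved to the other side of 0.5 in 3 alternatives. Midpoints were least frequent in the parts at both ends. From the start site onward 5 equal parts of the UTR held 13.9% ± 1.77, 23.4% ± 1.80, 26.1% ± 2.24, 23.3% ± 3.63 and 13.3% ± 1.01 of the midpoints (SD, n = 3). Clusters over the start codon form another class and are not counted here, and their part in the low end there was not tested. No cluster was shorter than 22 nt, and the median lengths within representative 5′ UTRs were 40, 41 and 39 nt. A cluster wholly inside a UTR therefore cannot have its midpoint at the very end. The part of cluster length in both low ends was not tested. Midpoints within 50 nt of the start site, where the pyrimidine tract of translation-controlled mRNAs lies, made up 15.1% ± 1.44, and those within 50 nt of the start codon 14.1% ± 1.15 (SD, n = 3).

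**Figure D3:**
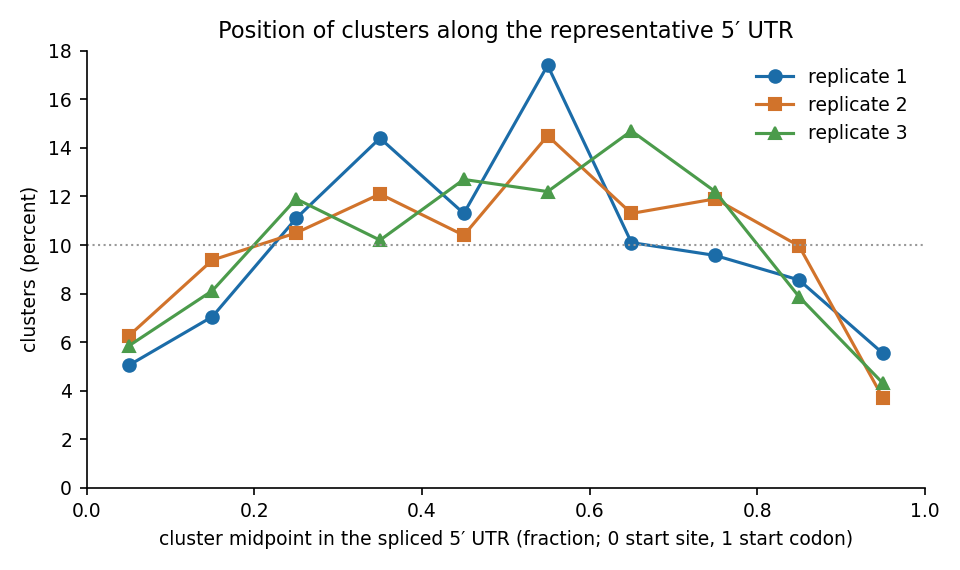
Percent of clusters (vertical axis) in 10 equal parts of the spliced representative 5′ UTR (horizontal axis, 0 at the start site and 1 at the start codon), with 1 line per replicate. The dotted line marks 10%, an even spread of midpoints with no allowance for cluster length. The first and last parts lie below it in all 3 replicates.

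The 5′ UTRs that carried clusters were long. Their median length was 363, 333 and 364 nt by cluster, against 145, 143 and 143 nt over all genes with a cluster of an mRNA class in the same library. The value by cluster counts a UTR once for each of its clusters, whereas the value over genes counts it once. A longer UTR also has more room for a cluster. UTR length was not corrected for here or in the counts of genes. The median distance was 155 nt ± 6.11 to the start site and 154 nt ± 3.04 to the start codon, and the first exon held 87.3% ± 0.682 of the clusters (SD, n = 3). At most 7.62% in any replicate reached beyond the exons of the UTR. Clusters crossing between a 5′ UTR and an intron or over a start codon are other classes, so the selection itself keeps this share low.

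Motifs were counted on the transcribed strand within clusters and in the uncovered rest of the same UTRs. Counts were pooled over all these UTRs of a library, not paired within genes. Long UTRs can weigh more in the rest than in the clusters, and the part of differences between genes was not tested. The clusters covered 18853, 25080 and 18989 nt, and the rest came to 128147, 162283 and 122371 nt. A was scarcer inside clusters, 12.9% ± 0.584 of bases against 17.7% ± 0.144. C was more frequent, 34.8% ± 1.03 against 31.5% ± 0.136, and T slightly more, 21.1% ± 0.965 against 19.8% ± 0.258 (SD, n = 3). These signs held in 3 of 3 replicates, while G had no constant sign. Each cluster must hold at least 2 T to be called at all, which bears on the T share and on every motif with T. The lower A share bears likewise on every motif with A. Motif ratios were not corrected for base content.

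ATCTT itself was rare in 5′ UTR clusters. It was present in 51, 48 and 48 of them, or 4.89% ± 0.534, close to coding clusters at 4.97% ± 0.322 and below introns at 9.69% ± 0.364 (SD, n = 3). As a density this was 1.22, 0.923 and 1.19 per 1000 nt, which differed from introns by -1.27 ± 0.0384 in 3 of 3 replicates (exact sign-flip p = 0.25). Clusters within representative 5′ UTRs had 0.676 ± 0.0792 per 1000 nt and intron-placed ones 1.51 ± 0.299. Against the rest of the same UTRs its log2 ratio was -0.27, 0.58 and 0.03, from only 11, 18 and 11 occurrences in clusters, so no difference larger than the spread was seen. The mean of 0.11 became -0.12 without replicate 2 and 0.30 without replicate 1, and sequence 200 nt away as background gave 0.50.

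Other motifs differed from the rest of the UTR more evenly. TCTT was denser in clusters by a log2 ratio of 0.39 ± 0.22 (0.54, 0.13 and 0.49), and CG by 0.21 ± 0.01, both in 3 of 3 replicates. With sequence 200 nt away as background TCTT had 0.67. ATG, the triplet that can begin an upstream reading frame, was sparser, with a log2 ratio of -0.63 ± 0.21 and 3.63 ± 0.445 against 5.61 ± 0.125 per 1000 nt, and -0.99 against the sequence 200 nt away. TTTT was sparser in 3 of 3 replicates at -0.48 ± 0.39, although replicate 3 had only -0.02 and the sequence 200 nt away as background gave -0.14. CTTT, GGG and CACGT changed sign between replicates, with means of 0.25, 0.01 and -0.38. CACGT, part of the E-box to which some transcription factors bind in DNA, rests on 3, 10 and 5 occurrences in clusters.

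Over all 1024 5-mers, 244 were denser in clusters than in the rest of the UTRs in 3 of 3 replicates, which is 23.8%, and 329 were sparser, which is 32.1%. Among the 32 made only of C and T, 27 were denser (84.4%) and 1 was sparser, with a median log2 ratio of 0.47. Of the 244 that contain CG, 104 were denser (42.6%) and 24 were sparser. The 48 that contain ATG gave the opposite picture, with 0 denser and 23 sparser (47.9%). The 205 with TT followed the background, with 60 denser (29.3%) and 58 sparser (28.3%). The sets were not matched for base content. A was scarcer in clusters, at 12.9% against 17.7% of bases, and its part in these counts was not tested. Overlapping 5-mers share bases and these sets were chosen with values known, so the counts describe these libraries only.

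**Figure D4:**
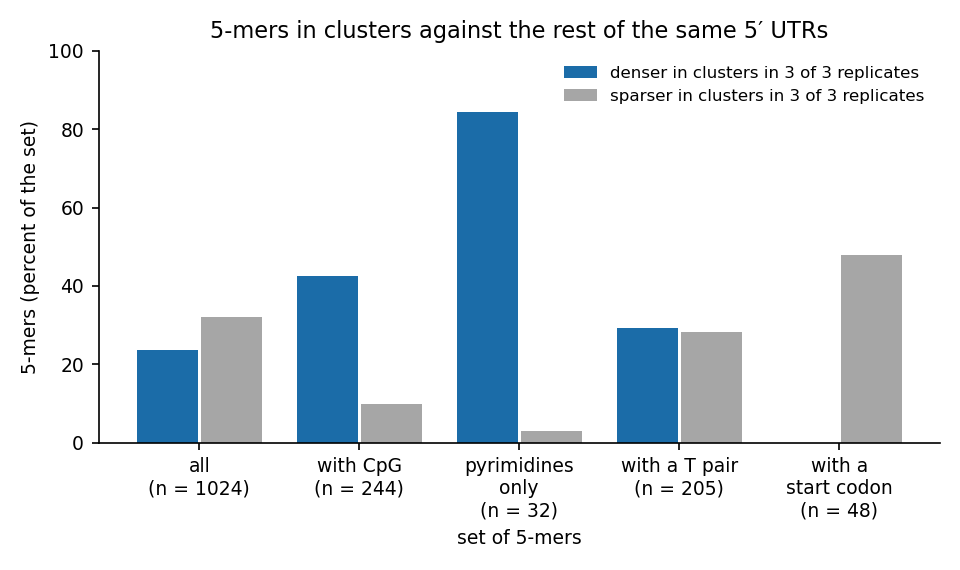
Percent of 5-mers in each set (vertical axis) that were denser (blue) or sparser (grey) in clusters than in the rest of the same 5′ UTRs in 3 of 3 replicates, for the sets on the horizontal axis. Pyrimidine-only 5-mers stand at 84.4% denser, against 23.8% of all 5-mers. The sets were not matched for base content.

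The 5-mers with the largest mean log2 ratios were GCTTC (0.97 ± 0.31), TGTCG (0.91 ± 0.31), TCGGT (0.90 ± 0.45), ATCCG (0.86 ± 0.66) and TTCGC (0.85 ± 0.41). TGCCG followed at 0.81, with CGATA at 0.81, then CTTCG at 0.80, then TTCTC at 0.80 and, last of the 10, TTCCC at 0.79. Of these 10, 7 contain CG and 5 contain TT, and CGATA rests on only 5 occurrences in clusters. TTCTC and TTCCC, the purely pyrimidine members, had the most occurrences, 177 and 238 over the 3 replicates. At the other end stood AAAAC (-2.63 ± 0.76), CAAAA (-2.55 ± 1.22), ACAAA (-2.46 ± 1.13), AAAAA (-2.40 ± 1.01) and ATTAA (-2.24 ± 0.86). These A-rich 5-mers occurred between 2 and 19 times in clusters. ATCTT ranked at position 290 of 1024.

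Recurrence was the share of clusters that share at least 1 nt and the strand with a cluster of any class in another replicate. It was 27.1%, 23.7% and 25.8% for 5′ UTR clusters, above coding clusters by 5.40 ± 0.253 and above introns by 4.0 ± 1.68 percentage points. Each gap was positive in 3 of 3 replicates (exact sign-flip p = 0.25, adjusted 0.348). Each pair of libraries enters the values of both its replicates, so the 3 values are not independent. Their SD and p do not measure a spread between independent replicates. The difference from 3′ UTR clusters was 2.69, -0.0472 and 2.18, with no constant sign. These gaps shrank when at least 50% of both clusters had to overlap, to 1.93 against coding clusters and 1.12 against introns. With at least 10 reads the gap to coding clusters was 2.63, and when the other cluster had to be of the same class the gap to introns was 0.974. Leaving out replicate 2 gave 2.77 and 2.01, over a single pair of libraries, and leaving out replicate 1 gave 2.63 against introns. Only 4.50%, 3.67% and 3.78% of the 5′ UTR clusters were found in both other replicates, and 696, 852 and 707 were found in neither.

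Most of the recurring clusters met their own class. A class is given by position, so overlapping clusters tend to share it, and the other classes were not counted this way. Of the 259, 264 and 246 found again, 231, 229 and 214 overlapped a 5′ UTR cluster, or 87.6% ± 1.35 (SD, n = 3). Pairs of libraries are shared between these values too. Another 17, 18 and 21 overlapped a cluster that runs from a 5′ UTR into an intron, and 6, 11 and 9 a cluster over a start codon. Pooled into loci, the clusters came to 2350 places seen in 1 replicate, 266 in 2 and 39 in 3. The 39 loci lay in 38 genes. In the representative transcript 25 were in introns, 22 of them in intron 1, while 10 were in 5′ UTRs.

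**Figure D5:**
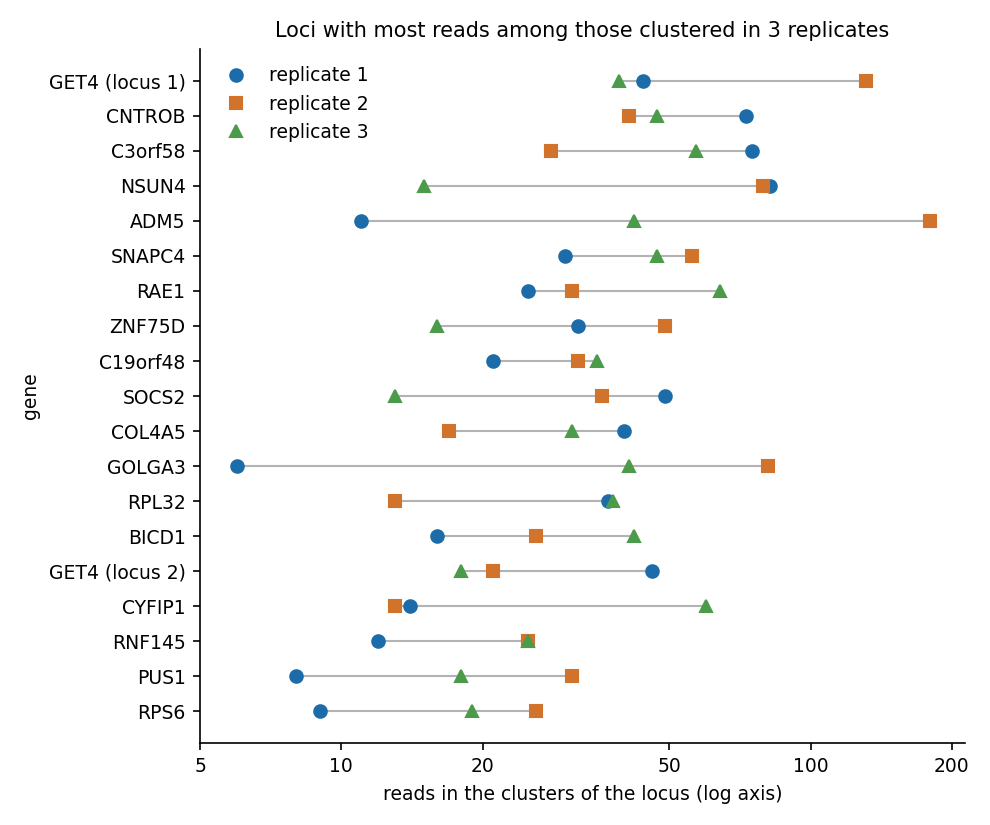
Reads in the 5′ UTR clusters (horizontal log axis) of 19 of the 20 recurring loci with the largest geometric means (vertical axis, by gene), with 1 point per replicate and a line over their range. ADM5 spans 11 to 180 reads, whereas SNAPC4 spans 30 to 56.

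GET4, part of the complex that passes tail-anchored proteins toward the endoplasmic reticulum, led the recurring loci and held 2 of them. Locus 1, the first sequence above, spans chr7:883962-884453 on the plus strand, in intron 1 of the representative transcript. It had 44, 131 and 39 reads, with replicate 2 above the other two, which were close to each other. Locus 2 lies just upstream at chr7:883784-883906 and had 46, 21 and 18 reads. Over the whole gene GET4 had 166, 188 and 125 reads in 7, 5 and 7 clusters, the highest geometric mean of all genes and the only total above 100 in every replicate among the genes named here.

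CNTROB, a centriole protein, had the leading locus within an exonic 5′ UTR. It lies in exon 1 at chr17:7932703-7933019, plus strand, and had 73, 41 and 47 reads. C3orf58, an older symbol of DIPK2A, followed with 75, 28 and 57 reads at chr3:143973178-143973284 in intron 1, where the 74 nt shared by all 3 replicates were the longest such stretch. NSUN4, a mitochondrial RNA methyltransferase, had 82, 79 and 15 reads at chr1:46341266-46341717 in intron 1. Replicates 1 and 2 were close there and replicate 3 was low.

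ADM5, a predicted adrenomedullin-like gene, was the least even, with 11, 180 and 42 reads at chr19:49689447-49689803, and its clusters of the 3 replicates shared no base common to all. Its cluster in replicate 2 had the most reads of any 5′ UTR cluster in that library. SNAPC4, a subunit of the complex that activates small nuclear RNA genes, had 30, 56 and 47 reads in intron 1. RAE1, an mRNA export factor of the nuclear pore, had 25, 31 and 64 reads in intron 1. Values here differ between replicates by severalfold in places, and no locus was tested. Loci and genes are ranked by reads, which can include copies of 1 molecule, and not by distinct reads.

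Loci in annotated 5′ UTR exons included COL4A5, a collagen chain of basement membranes, with 40, 17 and 31 reads. ZNF75D, a zinc finger protein, had 32, 49 and 16 reads. BICD1, an adaptor of the dynein motor and the pyrimidine-rich site printed above, had 16, 26 and 42 reads. RNF145, a ubiquitin ligase of the endoplasmic reticulum, had 12, 25 and 25 reads. All 4 lie in exon 1, and the lowest replicate was not the same from gene to gene.

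Among loci in introns, the ribosomal protein genes RPL32 and RPS6 had 37, 13 and 38 reads and 9, 26 and 19 reads, both in intron 1. GOLGA3, a golgin, had 6, 81 and 41 reads. PUS1, a pseudouridine synthase, had 8, 31 and 18 reads in intron 2. CYFIP1, a subunit of the WAVE complex of actin control, had 14, 13 and 60 reads in intron 15, a median of 63238 nt from the representative start site. SOCS2, a suppressor of cytokine signalling, had 49, 36 and 13 reads at a median of -639 nt relative to the start site. C19orf48, with 21, 32 and 35 reads, had no representative coding transcript to be placed in.

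The clusters fell in 710, 866 and 701 genes, and 548, 687 and 533 of those had a single cluster. Of the 11181 genes with a cluster of an mRNA class in any replicate, 1615 had a 5′ UTR cluster in at least 1 replicate, which is 14.4%. In all 3 replicates 153 genes had one, which is 1.37%. The 1106 genes seen in a single replicate were 68.5% of the 1615. Reads per gene were only loosely related between libraries, with Spearman's rho across genes of 0.262 over the 274 genes shared by replicates 1 and 2, 0.385 over 242 for replicates 1 and 3, and 0.270 over 299 for replicates 2 and 3. Genes are not independent replicates and these shared the same minimum of reads. The 10 leading genes of each library held 9.33% ± 0.488 of its 5′ UTR reads (SD, n = 3), so no gene dominated.

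After GET4, CHPF2, which acts in chondroitin synthesis, had 98, 180 and 44 reads in 4, 3 and 2 clusters of exonic 5′ UTR. SH2B1, an adaptor in insulin and cytokine signalling, had 107, 90 and 41 reads, and its clusters lay in the 5′ UTR and upstream of it. MPV17, a mitochondrial inner membrane protein, had 113, 63 and 49 reads, all upstream of the representative start site, and its leading clusters stood at -1471, -2355 and -2602 nt relative to it. Replicate 3 was the lowest of the 3 in each of these genes. COA1, an assembly factor of cytochrome c oxidase, had 136, 23 and 93 reads, LTB4R, a leukotriene receptor, 111, 41 and 55, and AKT1S1, a regulator of the mTORC1 kinase, 74, 84 and 36. Those of COA1, LTB4R and AKT1S1 lay in introns.

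The largest cluster of a library was not always repeated. KCTD6, an adaptor of a ubiquitin ligase, had the largest cluster of replicate 1 with 158 reads, but the gene had 172 reads in replicate 1, 0 in replicate 2 and 22 in replicate 3. The MATR3 gene itself had 5′ UTR clusters in replicate 3 only, 2 clusters with 71 reads, the larger of which covers chr5:139293826-139293913 in intron 1.

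Lists of genes were counted against the same background of genes with any mRNA cluster. The hnRNP and PTB list and the DNA sensing list are not defined by control through the 5′ UTR, unlike the others. TOP mRNAs, which encode ribosomal proteins and translation factors and begin with a pyrimidine tract, had a 5′ UTR cluster in 24 of 93 genes (25.8%, against 14.4% of all) and in all 3 replicates in 6 (6.45%, against 1.37%). Among the 6 were RPL32, RPL26, RPL28, RPS6 and NACA. RPL32 had 50, 13 and 54 reads, RPL26 25, 26 and 45, and RPL28 39, 35 and 21. The pyrimidine tract lies at the very start of the mRNA. Of the 21, 21 and 26 clusters of the list, 1, 0 and 0 had a midpoint within 30 nt of the start site in the representative 5′ UTR. No cluster was shorter than 22 nt, and clusters crossing into an intron or over the start codon are other classes. The count thus leaves little room for clusters at the tract, and binding there was not tested. Introns held 19, 18 and 25 of the clusters of the list, intron 1 alone 15, 18 and 23.

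The hnRNP and PTB genes, which encode abundant nuclear RNA-binding proteins, had a 5′ UTR cluster in 12 of 28 genes (42.9%, against 14.4% of all) and in all 3 replicates in 1. That gene was HNRNPC, with 57, 23 and 21 reads, all in introns of the representative transcript. HNRNPH1 had 95, 13 and 0 reads. The 12 genes include MATR3 itself but no PTBP gene.

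Smaller lists gave few genes, to be read against the 14.4% of all genes with a cluster in any replicate and the 1.37% in all 3. Those known for upstream reading frames had a cluster in 4 of 11 (36.4%: ATF5, DDIT3, EPRS and SLC7A1), and none of the 4 in all 3 replicates. Genes with structured or G-rich 5′ UTRs had one in 2 of 12 (16.7%), VEGFA and RUNX1. That of RUNX1 lay in an intron of the representative transcript. VEGFA, the vascular growth factor with a long structured leader, had 27, 9 and 7 reads within exon 1. The iron-responsive element genes had one in 2 of 5 (40%), the ferritin genes FTL with 14, 26 and 0 reads and FTH1 with 12, 0 and 0. The clusters of FTL lay in the representative 5′ UTR, whereas that of FTH1 lay in an intron. Of the genes of DNA sensing and nucleic acid clearance, chosen for the title of the series, 2 of 9 (22.2%) had one. They were LMNB1, a nuclear lamin, with 12, 33 and 14 reads in the exonic 5′ UTR, and BANF1. BANF1, a DNA-bridging protein of the nuclear envelope, had 9 reads in replicate 1 alone, in an intron. With a cluster of any exonic class in place of the 5′ UTR, 58.6% of all genes were counted, and 67 of 93 TOP mRNAs (72.0%) and 27 of 28 hnRNP and PTB genes (96.4%).

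Genes with a 5′ UTR cluster were also examined for clusters elsewhere. A coding cluster was present in 24.6% ± 2.40 of them against 15.5% ± 1.11 of the other genes with an mRNA cluster, and a 3′ UTR cluster in 38.0% ± 1.83 against 29.3% ± 0.766 (SD, n = 3). An intron cluster was less frequent, 85.7% ± 1.39 against 92.5% ± 0.498. The other genes had to hold a cluster of some other class to be counted, which raises their shares, so the comparison is given as a description. Among genes with an intron-placed 5′ UTR cluster 89.3% ± 2.56 also had an intron cluster, and among those with a cluster in the representative 5′ UTR 86.8% ± 1.77 (SD, n = 3).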

How the data were processed

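Per the labels, MATR3 PAR-CLIP was made in 3 biological replicates of wild-type HEK293 cells. The authors deposited 1 table of read clusters per replicate, called in each library separately. Read, distinct read and conversion numbers are deposited counts, not normalised, per the file headers. T-to-C reads over all reads of a cluster is a deposited fraction from 0 to 1. The genome build is hg38, per the submitters' processing notes, and the sequence of every 5′ UTR cluster equalled hg38 at its 1-based coordinates. The aligner, cluster caller and annotation release are not given in the sources used here. Reads carry no stated molecular identifiers, so counts can include copies of 1 molecule.

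Classes were taken as deposited. Gene names were matched to GENCODE release 44, where needed by way of the synonyms RefSeq lists (98.9% ± 0.153 of 5′ UTR clusters, SD, n = 3). Pooled reads with T-to-C over reads gave the class share. Differences within replicates were given exact two-sided permutation tests (sign flips) and Benjamini-Hochberg adjustment. The log2 ratios of 5-mers used a pseudocount of 1. Functions were checked on simulated data. Python 3.11.15, pandas 2.3.3 and pysam 0.24.0 were used. The members and lists were chosen with earlier results of these data known. Genes named were those of the 20 recurring loci and the 10 leading genes by geometric mean reads, the gene of the largest cluster in each replicate, up to 4 genes per list with clusters in all 3 replicates and MATR3. Some items under this rule are not reported here. NACA and list genes with a cluster in fewer replicates were named after their values were seen. 5-mers named were the 10 highest and 5 lowest by mean log2 ratio. The alternatives were stricter minimums, other summaries, overlaps, transcripts and backgrounds, leaving out each replicate and, added after seeing the data, keeping only clusters within representative 5′ UTRs.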

Additional observations from a re-analysis of the deposited data

How the results depend on the processing

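Of 39 comparisons of 5′ UTR clusters, 30 had no reversed sign under the alternatives run for them, among them G and C and CpG content against each class, although some differences in median length, reads or distinct reads came to 0, and 9 reversed it at least once (18 of 316 values). No p could pass 0.05 under any alternative, so only signs and sizes can be compared, and the cause of the shifts was not tested. With at least 10 reads the length difference from introns was -0.833 nt, the median position minus 0.5 was -0.00695, and the log2 ratios of ATCTT and GGG were -0.09 and -0.000404. With at least 3 distinct reads the length difference from introns was -0.667 nt and GGG -0.02. With at least 3 conversion locations the position was -0.00698 and GGG -0.07. The longest 5′ UTR gave a position of -0.0242, and sequence 200 nt away as background gave GGG -0.31. Taking the median cluster, T-to-C reads minus coding was -2.77. With only clusters in representative 5′ UTRs that difference was -2.79, conversion minus coding 0.0848 and T minus coding -1.61. Requiring the same class in the other replicate gave recurrence minus 3′ UTR of -1.24, and minus introns of 0.974. Leaving out each replicate in turn, ATCTT ranged from -0.12 to 0.30, GGG from -0.03 to 0.03 and CACGT from -0.68 to 0.000685.

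Counts of genes moved with the minimums. Genes with a 5′ UTR cluster in any replicate came to 896 with at least 10 reads, 883 with at least 3 conversion locations and 362 with at least 2 clusters, against 1615. Genes with one in every replicate came to 68, 72 and 29, against 153, and to between 242 and 299 when only 2 replicates had to hold one. Any exonic class in place of 5′ UTR gave 67 of 93 TOP mRNAs, 27 of 28 hnRNP and PTB genes, 11 of 11 with upstream reading frames, 8 of 12 with structured 5′ UTRs and 7 of 9 of DNA sensing, against 58.6% of all genes. The structured and DNA sensing lists held 1 gene each at the minimums of 10 reads and of 3 distinct reads. At 3 conversion locations the structured and iron lists held 1 and the upstream reading frame list 2. Leaving out 1 replicate gave between 1 and 2 genes for the structured, iron and DNA sensing lists and between 2 and 4 for the upstream reading frame list. No paired analysis was possible because all 3 libraries belong to 1 group, so no replicate number is shared between groups. Cluster classes were compared within each library.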
